A study of Mus musculus with 6 samples.

Results

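Single-pA genes are protein-coding genes for which exactly 1 cleavage and polyadenylation site (pA) was listed in the 3'-most exon. Their mRNAs that end in that exon thus carried a single 3'UTR in these data. They were taken as the genes with an NM transcript, 1 last-exon pA, and no second gene listed for that pA. The rule gave 5670 genes of 17132 with any pA, and of 15931 with an NM transcript and a last-exon pA, or 35.6%. Another 81 genes had 1 last-exon pA that was also listed for a second gene and were left out. The remaining 10180 genes had 2 or more last-exon pAs and are called multi-pA genes here.

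Whole testes of FVB mice were sampled at 1, 2, 3, 4, 5 and 6 weeks (w) after birth, with no treatment and no genetic change named. Poly(A)+ RNA was sequenced by 3'READS, which reads a transcript from its 3' end and counts poly(A) site-supporting (PASS) reads at each pA. There was 1 library a week and no replicate, 6 libraries in all. Comparisons set the 1–3 week (younger) libraries against the 4–6 week (older) libraries, 3 against 3, so p-values measure differences beyond a spread that holds age as well as sampling. Because whole testes were used, fewer cells of a type and less RNA per cell cannot be told apart. Whether the animals of a library were pooled is not given in the sources used here.

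A pre-mRNA is cut at a pA and a poly(A) tail is added there. The cut is directed by a hexamer upstream, most often AATAAA, and by U- or GU-rich sequence downstream. A gene with several pAs in its last exon can make mRNAs with long or short 3'UTRs, and the 3'UTR carries much of the signal for mRNA decay and translation. A gene with 1 last-exon pA showed no such choice in these data. Its mRNAs that end in the last exon thus had 1 3'UTR size, against which expression can be set. For some of these genes pAs in introns or upstream exons were listed too. In the first wave of spermatogenesis, spermatogonia enter meiosis as spermatocytes and then become spermatids, which exchange histones for transition proteins and protamines and build the acrosome and tail. A pA can also lie in an intron, which truncates the coding sequence, or upstream of a promoter on the opposite strand, which ends an upstream antisense RNA (uaRNA).

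The sequences before the pA are shown for 16 genes, taken from those with the highest levels and those with the largest changes with age. Each is the mm9 sequence of the 30 nt just upstream of the pA, read on the strand of the gene, and the capitals mark the hexamer found.
Prm1: atgccacctgtcAATAAAtgttgaaaactc
Prm2: agccacctgccaAATAAAgcttgacacgag
Dkkl1: ccatatggaAATAAAggttttcttacatct
Galntl5: gcaatgaaaAATACAttcagagtggccagt
Atpif1: tactaacagatAATAAAcgatcaccaggaa
Gstm1: ctgtctcgtctacAATAAAgtctgaaacac
Sycp3: cgattgtgtcAATAAAgatgatttaaattt
Zcrb1: aaatattcaAATAAAatcttactgtaccaa
Prss52: ctaacctgatgATTAAAcgtgagactgcca
Gm136: ttcccagaagaAATAAAtgtactcaaaacc
1700008P02Rik: ttctggtattgAATAAAcaaagtaaacagt
Klk1b9: ttctcAATAAAattcactatgcaacaaatg
Bcan: ccaggtggaAATAAAgttgtctgaacccaa
AI848285: tgtaAATAAAccctctaatgtggttcctgt
Acot6: tgaaAATAAAatgtgttttggacaaacttg
Mmp23: gaaggcagcaGATAAAgcactttctctctg
Of these 16 sequences 13 held AATAAA, while ATTAAA stood before the Prss52 site, AATACA before the Galntl5 site and GATAAA before the Mmp23 site. Syngr4, also among the genes with the highest levels, is not shown. Its hexamer, AGTAAA, began 33 nt before the pA, outside the 30 nt printed. The 16 are thus no measure of how often AATAAA occurs. The Prm1 window lies at chr16:10796425-10796454 on the minus strand and the Prm2 window at chr16:10791474-10791503 on the minus strand, both in the last of 2 exons and in the 3'UTR. Dkkl1 is at chr7:52462896-52462925 (minus), Galntl5 at chr5:24726085-24726114 (plus), Atpif1 at chr4:132086475-132086504 (minus) and Gstm1 at chr3:107815179-107815208 (minus). Sycp3 is at chr10:87935951-87935980 (plus), Zcrb1 at chr15:93216542-93216571 (minus), Prss52 at chr14:64732562-64732591 (plus) and Gm136 at chr4:34691039-34691068 (minus). 1700008P02Rik is at chr3:6615429-6615458 (minus), Klk1b9 at chr7:51235717-51235746 (plus), Bcan at chr3:87791455-87791484 (minus) and Acot6 at chr12:85452274-85452303 (plus). AI848285 is at chr15:82037387-82037416 (minus) and Mmp23 at chr4:155024765-155024794 (minus).

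The pA of a single-pA gene mostly had a canonical signal and mostly stood where annotation ends the transcript. AATAAA was found within 40 nt upstream of the pA on the transcribed strand in 69.2% of the 5670 genes and ATTAAA, in the absence of AATAAA, in 14.2%. A further 10.8% held AGTAAA or else TATAAA or else CATAAA or else GATAAA or else AATATA or else AATACA or else AATAGA or else ACTAAA or else AAGAAA or else AATGAA, and 5.86% held none of these letters in that window. Over all 44656 last-exon pAs of NM genes the same window held AATAAA in 39.0% and none of them in 24.2%. The most-used pA of multi-pA genes lay between, with AATAAA in 57.2% and none in 10.0%. Among genes with at least 1000 reads in all the single pAs held AATAAA in 72.2% and the most-used pAs of multi-pA genes in 58.6%. The median hexamer began 22 nt before the pA in both kinds of gene.

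The 3'UTRs of single-pA genes had a lower median size than those of multi-pA genes. The 3'UTR was measured from the end of the annotated stop codon in 5524 genes, and its median size was 348 nt with quartiles of 159.75 and 766.25 nt. The most-used pA of multi-pA genes gave a median of 716 nt. With at least 1000 reads the medians were 233 nt and 539 nt. Sizes ran from 2 to 19844 nt, with 740 genes under 100 nt and 312 over 2000 nt. The single pA fell within 24 nt of an annotated transcript end in 82.3% of matched genes, and the most-used pA of multi-pA genes in 57.1%. The single pA lay upstream of the annotated stop codon in 83 genes.

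The share of genes with 1 pA differed with how deeply a gene was read. Single-pA genes had a median of 81 last-exon reads over the 6 libraries and multi-pA genes 347. Among genes with under 10 reads 81.6% showed 1 pA, among those with 10 to under 20 reads 56.2%, and among those with 20 to under 100 reads 38.3%. The share was 26.0% from 100, 24.7% from 500 and 24.8% from 1000 to under 5000 reads. It was 38.8% above that, where 277 of 713 genes with 5000 or more reads had 1 pA. Of the 5670 genes 1821 had under 20 reads, so for these a second pA could have gone unread, while 981 had at least 1000.

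Some gene families showed 1 pA more often than the 35.6% of all genes and some less often, and these shares were not tested. Subunits of respiratory complex I had a single pA in 24 of 35 genes and cytochrome c oxidase subunits in 10 of 17. Median last-exon reads over the genes of these families were 1059 and 1181, and 24.8% of all genes with 1000 to under 5000 reads had 1 pA. Proteasome subunits had 1 pA in 21 of 38 genes, Prss serine proteases in 18 of 27 and cytosolic ribosomal proteins in 36 of 77. The median reads of these families were 1436.5, 208 and 300. Keratins with 25 of 35, olfactory receptors with 27 of 42 and cytochrome P450 genes with 34 of 52 also had high shares, but their median reads were 9, 5 and 27. At the low end stood the Zfp zinc finger genes with 72 of 332, collagens with 9 of 40 and Rnf RING finger genes with 18 of 75. Their median reads were 149, 214.5 and 701. Of all genes with 100 to under 500 reads 26.0% had 1 pA, and with 500 to under 1000 reads 24.7%, so these low shares were near those of genes read as deeply.

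Single-pA genes supplied a growing share of last-exon reads. From 1w to 6w their share was 33.4%, 35.8%, 38.7%, 40.2%, 40.6% and 41.1%. The mean was 36.0% ± 2.70 (SD, n = 3) in 1–3 week and 40.6% ± 0.433 (SD, n = 3) in 4–6 week libraries, which did not overlap. The exact permutation test was two-sided and gave p = 0.1, the smallest that 3 against 3 allows. The 10 genes with most reads held 20.6% of single-pA reads at 1w and 47.3% at 6w, and without the 10 of each library the share was 28.4%, 30.5%, 33.1%, 30.1%, 27.5% and 26.8% from 1w to 6w. The direction thus turned without these 10 genes, from 4.66 percentage points higher to -2.54 (two-sided exact permutation p = 0.2).

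**Figure D1:**
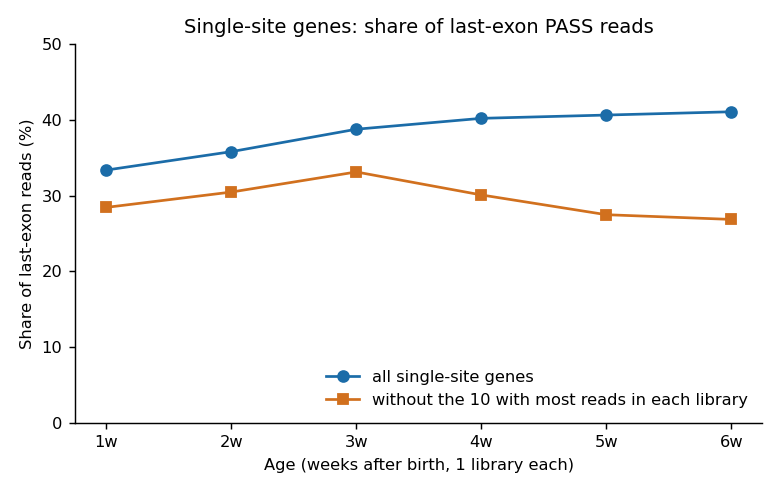
Share of last-exon PASS reads (%) from single-pA genes at each week, 1 library a week, for all 5670 genes (circles) and without the 10 with most reads in each library (squares). The upper line climbs from 33.4% to 41.1%, and the lower one tops out with 33.1% at 3w and ends on 26.8%.

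The 8 genes with the highest mean level differed in their timing. Prm1, which encodes a protamine that packs sperm DNA, had 173, 25.5, 93.8, 28559, 60293 and 74341 RPM (PASS reads scaled to the library's total) from 1w to 6w. Its 3 older libraries all stood far above its 3 younger ones. Dkkl1, a secreted protein of the acrosome, had 118, 622, 16515, 25950, 23579 and 20693 RPM from 1w to 6w. Galntl5, a glycosyltransferase-like protein of spermatids, had 43.5, 8.02, 1350, 15044, 22275 and 16202 RPM, and Syngr4, of the synaptogyrin family, had 34.6, 298, 3677, 6098, 5494 and 5441 RPM. Dkkl1 and Syngr4 thus stood well above their 1w and 2w levels at 3w, when Prm1 was below its 1w level. Sycp3, a component of the synaptonemal complex that joins paired chromosomes in meiosis, had 1075, 9621, 10320, 6483, 4152 and 2777 RPM, with its highest values at 2w and 3w. The remaining 3 were highest at 1w or 2w in RPM. Gstm1, a glutathione S-transferase, had 14640, 9653, 5010, 3428, 2880 and 2223 RPM. Atpif1, the inhibitor of mitochondrial ATP synthase, had 8080, 8675, 7224, 7166, 5288 and 6352 RPM, and Zcrb1, an RNA-binding protein of the minor spliceosome, had 4913, 5431, 4413, 3523, 2929 and 1932 RPM. Of these 8 only Prm1 passed the test of 4–6 week against 1–3 week samples that follows (edgeR adjusted p = 0.017, and 0.0594 to 0.648 for the other 7). That test scales to the bulk of genes, and there the log2 changes of Atpif1 and Zcrb1 were 0.992 and 0.481, above 0 although their RPM was lower in older libraries. For Gstm1 the log2 change was -0.419.

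Expression of 2971 single-pA genes could be tested between 4–6 week and 1–3 week samples by edgeR's quasi-likelihood test, in a fit over 11269 genes with TMM scaling. At an adjusted p below 0.05, 494 were higher and 649 lower in 4–6 week samples, or 16.6% and 21.8%. Over all genes tested 17.7% were higher and 22.5% lower, so the shares of single-pA genes were near those of all genes. The median log2 change was -0.00163 for single-pA genes and -0.0729 for all genes. TMM scaling puts the bulk of genes near no change, and with the study's totals of PASS reads in its place the median of all genes was -1.387 and the counts were 324 higher and 1544 lower. Changes on the TMM scale are therefore relative to the bulk of genes, and RPM values are relative to all PASS reads. Leaving out the 5w library left 92 higher and 0 lower genes (600 lower at an unadjusted p below 0.05), and leaving out 6w left 117 and 4. Leaving out 1w gave 337 and 340, 2w 185 and 59, 3w 1232 and 1066, and 4w 242 and 151. By DESeq2 864 were higher and 756 lower.

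The 8 genes that rose most included protamine and transition protein genes and serine proteases. Prss52 and Prss51, neighbouring serine protease genes on chromosome 14 known from testis, had no read at 1w, 2w or 3w. Prss52 had 154, 263 and 329 reads in the older libraries and Prss51 had 68, 170 and 165, which against the limit of 3 reads over the younger set is at least 183-fold and at least 98.9-fold higher in RPM. Gm136 also had 0 reads in the younger libraries and 105, 268 and 295 in the older ones, at least 164-fold higher. Klk1b9, of the kallikrein family, whose members are close copies that reads may not separate, had 0 reads in the younger libraries and 63, 136 and 222 in the older ones, at least 103-fold higher. The older and younger libraries did not overlap for any of these genes, because no overlap was a condition for naming them. On TMM-scaled reads all older libraries lay above all younger ones in 34.7% of tested single-pA genes and 33.1% of all genes tested. 1700008P02Rik had 1, 0 and 1 reads and then 392, 882 and 1277, a ratio of 940 in RPM with an exact 95% counting interval from 260 to 7762. Prm2, the other protamine, had 41, 4 and 17 reads and then 6691, 17463 and 26680, and its log2 change was 10.64 ± 1.4 (SE, adjusted p = 0.00734). Tnp2, a transition protein that stands in for histones before protamines arrive, had 21, 6 and 25 reads and then 6503, 12807 and 22617, with a log2 change of 10.54 ± 1.19 (adjusted p = 0.0066). Prm1 rose by 10.55 ± 2.03 (adjusted p = 0.017), with the call lost in 3 of the 6 fits that leave out a library.

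The 8 genes that fell most included extracellular matrix, receptor and adhesion genes and enzymes. Bcan, which encodes the matrix proteoglycan brevican, had 357, 109 and 11 reads in the younger libraries and 1, 0 and 0 after. Its RPM ratio of younger over older libraries was 648, with an exact 95% counting interval from 116 to 25631. AI848285 had 200, 185 and 11 reads and then 1, 0 and 0, and Acot6, an acyl-CoA thioesterase, had 66, 38 and 10 and then 0, 0 and 1. Mmp23, a matrix metalloprotease, had 79, 20 and 11 reads and then 0, 0 and 1, and Klk8, a kallikrein-related peptidase, had 98, 57 and 10 and then 2, 0 and 0. In each of these the 3w value lay below the 1w value. It lay above every later one, as the rule for naming these genes required. Agtr2, a receptor for angiotensin II on the X chromosome, had 394, 42 and 10 reads and then 3, 0 and 2. Dsg2, a cadherin of desmosomes, had 181, 132 and 25 and then 0, 3 and 2, and Wif1, a secreted inhibitor of Wnt ligands, had 125, 170 and 34 and then 1, 4 and 0. Their log2 changes were -5.39 ± 1.60 (SE) for Agtr2, -5.01 ± 0.988 for Dsg2 and -5.01 ± 0.933 for Wif1, with edgeR adjusted p of 0.0383, 0.0173 and 0.0159. Each of these 8 calls was lost in 3 to 5 of the 6 fits that leave out a library.

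**Figure D2:**
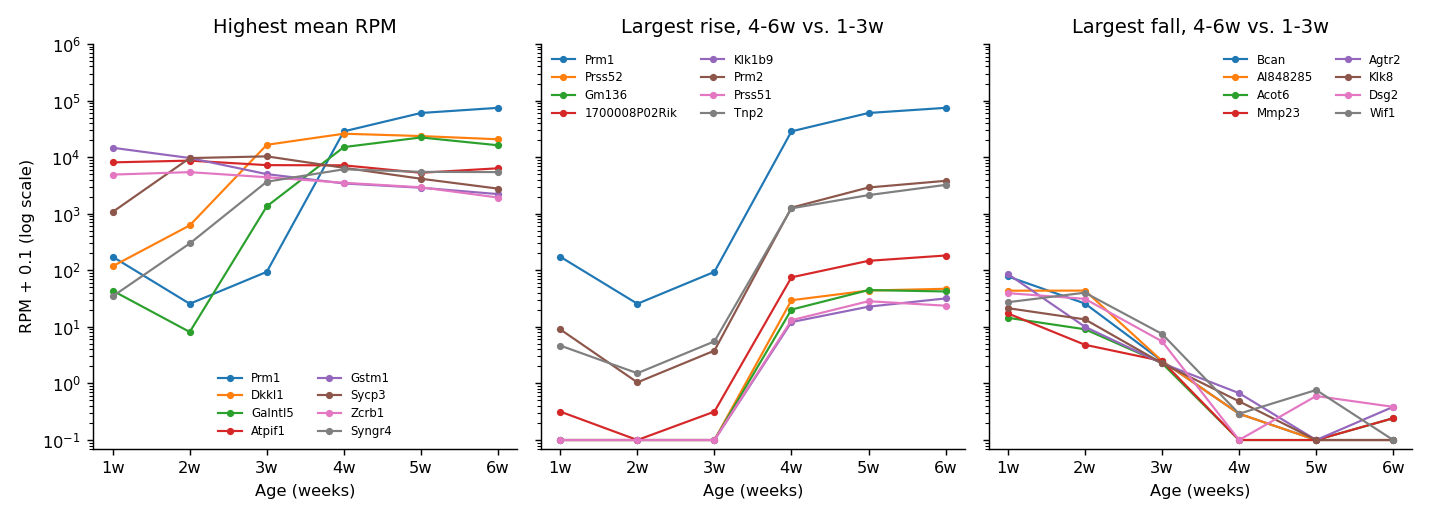
RPM plus 0.1 (log axis) at each week, 1 library a week, for the single-pA genes with the highest mean level (left), the largest called rise (middle) and the largest called fall (right) from 1–3 week to 4–6 week samples. Prm1 lies at 173 RPM or less up to 3w and at 28559 or more from 4w, while genes on the right are under 1 RPM from 4w.

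Among single-pA genes, those higher in 4–6 week samples had shorter 3'UTRs than those lower. The median 3'UTR of higher genes was 146.5 nt (484 genes), genes not called 282 nt (1813 genes) and genes lower 598 nt (643 genes). Of 461 genes with a 3'UTR of up to 100 nt 34.9% were higher and 8.03% lower, and of 662 genes over that and up to 200 nt 24.6% and 11%. Up to 400 nt the shares were 14.5% and 16.6%, up to 800 nt 7.11% and 29.4%, and up to 1600 nt 3.23% and 42.5%. Of 142 genes over 1600 nt 2.82% were higher and 57.0% lower. The median log2 change went from 1.22 in the shortest class to -1.55 in the longest. Across 2940 genes Spearman's rho of 3'UTR size and log2 change was -0.439, and it was -0.486 across the 974 with at least 1000 reads and -0.446 across the most-used pAs of 8001 multi-pA genes. Genes share libraries and are not independent replicates, so these are given without a test. With calls from the study's totals the medians were 129 nt and 423 nt, and with at least 1000 reads 142.5 nt and 559.5 nt.

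**Figure D3:**
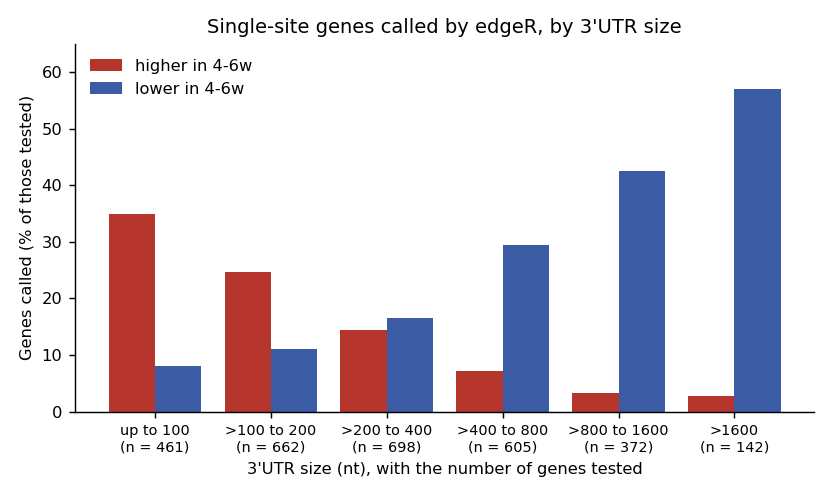
Percent of single-pA genes called higher (red) or lower (blue) in 4–6 week than in 1–3 week samples by edgeR, for 6 classes of 3'UTR size in nt with the number tested under each. Higher calls go from 34.9% in the shortest to 2.82% in the longest class and lower calls from 8.03% to 57.0%.

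The sequence of the 3'UTR and the build of the gene differed along with its size. The word TTTT, a run of U in the RNA, stood 7.97 times per kb in the 3'UTRs of genes higher in 4–6 week samples and 11.9 times per kb in those of genes lower. Within 3'UTRs of 300 to under 600 nt it stood 7.17 times per kb in 70 higher genes and 10.4 times per kb in 154 lower genes, and within 100 to under 300 nt 6.77 and 10.8 times per kb. GTTT and TTGT, both GU-rich, also stood less often in the higher genes, 4.38 against 5.45 and 4.53 against 5.94 times per kb. The words ACCA and AAGA went the other way, with 5.40 against 4.28 and 6.61 against 5.10 times per kb. Only words that the study had reported were counted. From these same libraries it gave TTTT, GTTT and TTGT as enriched in single 3'UTRs of genes down from 2w to 4w. ACCA and AAGA it gave for genes that went up. The directions found here are thus not independent of the study's result. AATAAA preceded the pA in 66.8% of higher and 76.0% of lower genes, and no hexamer of the list was found in 6.48% and 1.23%. In multi-pA genes the most-used pA held AATAAA in 42.2% of higher and 63.1% of lower genes. Higher genes had a median of 5 exons and lower genes 10. Of 89 tested genes with 1 exon 33 were higher and 14 lower, among 241 such genes in all. Of 2856 tested genes with 2 or more exons 455 were higher and 629 lower, and the difference was not tested.

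Single-pA genes on the X chromosome had less RPM in the older libraries. Sex chromosomes are known to be silenced in meiosis. The summed RPM of the 239 X-linked genes was 6539, 6309, 2930, 1752, 1685 and 2248 from 1w to 6w, or 2.43% of all single-pA RPM at 1w and 0.555% at 5w. The older and younger libraries did not overlap, and the exact permutation test of the percentage gave p = 0.1 (two-sided, the smallest possible). Of 118 tested X-linked genes 52 were lower and 25 higher, 44.1% and 21.2%, against 20.9% and 16.4% of the 2853 on other chromosomes. In multi-pA genes of the X chromosome 51.6% of 254 were lower and 12.6% higher. Tmsb15a, a thymosin gene of the X chromosome, was among the higher genes, with 0, 0, 1, 61, 103 and 303 reads from 1w to 6w and a log2 change of 9.24 ± 1.18 (edgeR adjusted p = 0.00709). It was named for its large part of RPM at 6w and passed the filter on low counts through the older libraries alone. Its call is therefore no separate evidence of a rise.

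The genes with the largest part of their RPM in a single week differed in how far they stood out. At 1w these were Agtr2 with 86.9% of its summed RPM, Epha2, an ephrin receptor, with 81.3%, and Plagl1, an imprinted zinc finger gene, with 78.0%. At 2w they were Wfdc9, of the WAP family, with 66.5%, Gm4980 with 61.4% and Butr1 with 58.9%. Prr22, Pdilt and Fam123a led at 4w with 48.2%, 37.6% and 36.6%, and Tuba8, Mical3 and 4933400C05Rik at 5w with 47.5%, 45.6% and 44.7%. Tmsb15a, 1700012A03Rik and Gucy2d, a guanylate cyclase, led at 6w with 59.8%, 56.8% and 55.8%. Of the 2225 genes with at least 200 reads those with over 50% of their RPM in a single week numbered 93, 21, 8, 0, 0 and 9 from 1w to 6w. In RPM the single-pA genes read mostly in 1 week were thus most often 1w genes. The same count for multi-pA genes or on TMM-scaled reads is not given here, so it cannot be called particular to single-pA genes.

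The 3 genes with the highest 3w shares, 91.6%, 89.8% and 85.4%, are known from other tissues. Tnnt3, the troponin T of fast skeletal muscle, had 4, 126, 2286, 47, 36 and 0 reads from 1w to 6w. Defb39, a beta-defensin of the epididymis, had 1, 47, 1379, 13, 115 and 8 reads, and Fga, the fibrinogen alpha chain made in liver, had 1, 62, 475, 8, 8 and 0 reads. All 3 also had more reads at 2w than at 1w. The part of RNA from other tissues in the other 3w values was not tested.

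The weeks also differed in how many genes peaked in them. Of 3849 single-pA genes with at least 20 reads the numbers with their highest RPM in each week, 1w to 6w, were 1263, 1060, 727, 222, 198 and 379. On TMM-scaled reads the counts were 1059, 655, 439, 261, 422 and 1013, so the number at 6w changed with the scaling. Among multi-pA genes 39.6% peaked at 1w and 7.56% at 6w in RPM, against 32.8% and 9.85% of single-pA genes. Between 2w and 4w alone, with 1 library each and no test, 815 of 3074 single-pA genes with at least 20 reads were more than 1.4-fold higher in RPM at 4w and 1923 more than 1.4-fold lower. These are 26.5% and 62.6%, and over all 11563 genes 23.6% and 64.4%. With TMM library sizes in place of the study's totals 1258 were up and 1215 down, so the excess of lower genes was not seen on that scale.

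A few genes kept a steady RPM. Rpl36al, a ribosomal protein gene without introns, had 78.9, 84.3, 91.0, 90.5, 80.6 and 90.6 RPM, a coefficient of variation of 6.34%. Lsmd1, a subunit of an N-terminal acetyltransferase, had 51.3, 54.0, 50.9, 49.4, 49.1 and 58.1 RPM (6.57%), and Gemin4, of the SMN complex, had 39.1, 34.7, 43.1, 40.2, 35.5 and 35.7 RPM (8.69%). 2410003K15Rik and Pex16, a peroxisome assembly factor, varied by 9.96% and 11.6%. All 5 were called higher on the TMM scale, with log2 changes of 1.24 to 1.44 and edgeR adjusted p of 0.024 to 0.0376.

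Lists of genes known from each testis cell type gave the following counts of single-pA genes. Over all genes tested, beside which these counts stand, 17.7% were higher and 22.5% lower. Of 10 spermatid nuclear protein genes 6 were single-pA genes and all 6 were higher, with a median log2 change of 10.2 and a summed RPM of 188, 28.1, 113, 31368, 65784 and 81994 from 1w to 6w. H1fnt, the spermatid linker histone, had 3, 0 and 21 reads and then 579, 1155 and 1407. Of 28 acrosome and round spermatid genes 17 were single-pA genes, of which 9 were higher and 0 lower. Crisp2 had 3.26, 14.9, 1303, 1684, 1885 and 1659 RPM and Spata16 2.39, 4.96, 1332, 970, 835 and 556 RPM, both high from 3w on and both not called. Tssk1, a testis-specific kinase, had 1.52, 1.42, 45.5, 224, 263 and 223 RPM and was called (edgeR log2 change 4.99 ± 1.59, adjusted p = 0.0461). Spaca4, a sperm membrane protein, had 1.74, 0.236, 48.1, 376, 374 and 488 RPM and just missed the threshold (adjusted p = 0.0502).

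Of 23 sperm tail genes 15 were single-pA genes, with 3 higher and 0 lower of 13 tested. Tekt2, a tektin of the axoneme and not called, had 14.8, 16.3, 218, 455, 456 and 462 RPM, and Odf4 had 0.652, 2.12, 115, 157, 135 and 116 RPM and was not called either. Meiotic prophase genes gave 9 single-pA genes of 20, with 1 higher and 0 lower of 7 tested. Pachytene genes gave 6 of 13, with none called of 5 tested. Ybx2, a germ cell RNA-binding protein, had 20.9, 189, 2191, 2343, 2074 and 1409 RPM, and Pgk2, the intronless phosphoglycerate kinase of spermatocytes, had 0.870, 1.18, 245, 589, 762 and 790 RPM. For both the 3w value lay above the 1w and 2w values and below the 4w value. Among genes named only by a RIKEN clone number, 43 of 76 tested in the larger testis series and 26 of 46 in the other were higher and 0 lower, with median log2 changes of 4.87 and 5.10. Of the remaining RIKEN genes 94 of 234 tested were higher and 14 lower, with a median of 2.45, and over all genes tested 17.7% were higher and 22.5% lower.

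Of 18 Sertoli cell genes 6 were single-pA genes, with 4 lower and 0 higher and a summed RPM of 5879, 5156, 2028, 772, 508 and 340. Dhh, the desert hedgehog ligand, had 3693, 1606, 636, 234, 112 and 85.0 RPM (edgeR log2 change -2.46 ± 0.675, adjusted p = 0.0315), and Gata4, a transcription factor of somatic gonadal cells, had 154, 53.6, 20.03, 5.74, 3.497 and 3.43 RPM (-2.78 ± 0.682, adjusted p = 0.0248). Rhox8 on the X chromosome fell by 2.46 on the log2 scale (adjusted p = 0.0314), and Clu had 1859, 3362, 1280, 492, 378 and 239 RPM and was not called. Of 18 spermatogonia genes 8 were single-pA genes, with 3 lower and 0 higher of 5 tested. Uchl1 had 1524, 1851, 512, 236, 175 and 109 RPM and Sall4 36.5, 19.8, 3.92, 1.15, 0.333 and 0.286 RPM, with adjusted p of 0.047 and 0.0219. Stra8, a gene of meiotic entry, had 24.1, 58.1, 13.5, 8.23, 2.16 and 3.29 RPM and was not called.

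Leydig cell genes moved in both directions, with 1 higher and 1 lower of 4 tested among 5 single-pA genes. Cyp17a1, an enzyme of androgen synthesis, had 113, 88.5, 119, 215, 133 and 97.0 RPM and was called higher on the TMM scale (log2 change 1.71 ± 0.364, adjusted p = 0.0196), although its RPM in the 2 sets of libraries overlapped. Nr5a1, a transcription factor of steroidogenic cells, had 91.6, 77.9, 15.0, 6.31, 2.83 and 2.00 RPM (adjusted p = 0.0228). Peritubular, vascular, blood and immune genes gave 9 single-pA genes of 23, with 2 lower of 6 tested. The 2 lower genes were Acta2, the smooth muscle actin, at 868, 956, 441, 175, 98.7 and 77.4 RPM and Cdh5, an endothelial cadherin, at 48.7, 24.1, 6.75, 2.87, 0.333 and 1.14 RPM. Among secreted ligands, Insl6 had 4.57, 3.78, 157, 238, 201.5 and 247 RPM and was not called, and Mdk had 36.8, 9.68, 3.70, 0.765, 0.999 and 1.00 RPM and was lower (adjusted p = 0.046). Each call of a gene named here from the cell type and ligand lists, other than those of Prm1, Prm2 and Tnp2, was lost in 2 to 5 of the 6 fits that leave out a library.

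Of 15 ubiquitous reference genes 5 were single-pA genes, and their counts show a limit of the table. Gapdh had 5, 3, 0, 0, 0 and 0 reads and Ppia 83, 88, 114, 112, 107 and 130, low for such abundant mRNAs. Both have near-identical processed pseudogenes, and reads that copies share may not be counted, so their levels are uncertain. Ppia was called higher on the TMM scale with a log2 change of 1.17, which turned to -0.14 with the study's totals (edgeR adjusted p = 0.739).

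Germ cell mRNAs of late spermatids were also read in the youngest library. Among 15 single-pA genes with at least 1000 reads in each of 4w, 5w and 6w and a 3w level under 5% of their mean, all 15 had more RPM at 1w than at 2w, although only 5 of them had 5 or more reads at 2w. In the wider set of 211 single-pA genes called higher in 4–6 week samples with at least 20 reads in 1w and 2w together, 86 had more RPM at 1w than at 2w. The summed RPM of the 15 genes from 1w to 6w was 348, 79.3, 360, 36899, 74919 and 92202. Of the 6w value 1w held 0.377% and 2w 0.0860%. In these 2 youngest libraries Prm1 gave 796 and 108 reads and Prm2 41 and 4. The part of such reads in the other 1w values was not tested.

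Intronic pAs were listed for 1649 single-pA genes, 29.1%, against 45.6% of multi-pA genes. With at least 1000 last-exon reads the shares were 24.6% and 37.9%. The 3772 sites held 189547 reads, of which Sin3b alone held 27.3% and the 6 genes with most reads 42.5%. Of 1428 genes with an intronic pA and at least 20 intronic and last-exon reads together 245 had more intronic than last-exon reads. Sites inside another annotated gene of the same strand, or within 1000 nt after it, numbered 82 and held 3.66% of the reads.

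Sin3b, a transcriptional corepressor, Cog5, of a Golgi tethering complex, and Ccdc9 were read mostly at intronic pAs in every library. Sin3b had 9292, 12652, 10640, 7368, 6209 and 5669 intronic reads at 1 pA (chromosome 8, position 75263800), which were 98.3% to 99.8% of its intronic and last-exon reads. Cog5 had 91.3% to 99.1% and Ccdc9 90.2% to 99.8%, and the change did not pass the test in Sin3b, Cog5 or Ccdc9 (edgeR adjusted p = 0.0589, 0.181 and 0.092). Odf2, an outer dense fibre protein of the sperm tail, changed over. Its intronic pA (chromosome 2, position 29778059) had 19, 52, 1588, 2807, 4010 and 3963 reads from 1w to 6w, or 3.79%, 9.30%, 75.8%, 91.1%, 94.2% and 94.9% of its intronic and last-exon reads. The last-exon pA of Odf2 had 482, 507, 507, 275, 247 and 212 reads. The log2 change of the ratio was 6.26 ± 1.36 (SE, edgeR adjusted p = 0.00439). Acrbp, an acrosin-binding protein, kept 52.7% to 69.4% intronic reads in all 6 libraries while both kinds of read went up, and its ratio was not called (adjusted p = 0.873). For Gemin4 the share went from 10.0% at 1w to 88.4% at 6w (adjusted p = 0.000159), but its main intronic pA also lies in Glod4 on the same strand, so the reads could belong to either gene.

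The ratio of intronic to last-exon reads could be tested in 394 single-pA genes. It was higher in 4–6 week samples in 61, or 15.5%, and lower in 11, or 2.79%. Over all 2315 genes tested 20.2% were higher and 4.84% lower. The median log2 change was 0.444 for single-pA genes and 0.703 for all genes, and the median intronic share of the tested single-pA genes was 2.86%, 3.46%, 2.75%, 3.70%, 4.17% and 4.48% from 1w to 6w. Of the 61 genes with a higher ratio 19 had lower and 4 had higher last-exon expression. Last-exon reads are the denominator of the ratio, so a fall in them raises it and these counts are not independent of the call. Over all genes tested for expression 22.5% were lower and 17.7% higher. Leaving out a library gave 33 to 94 higher and 1 to 57 lower genes, with both highest counts without 3w. The higher count was 37 without 1w, 33 without 2w and 39 without 6w, and the lower count 3, 1 and 4, with 3 lower without 5w.

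Aatf, which encodes an antagonist of apoptosis, had 0, 1 and 0 intronic reads and then 38, 107 and 149, or 21.7%, 43.5% and 51.6% (95% Wilson interval 45.8 to 57.3% at 6w). Its log2 change was 7.58 ± 1.03 (edgeR adjusted p = 0.000317). N6amt2 had 0 intronic reads of 415 in the younger libraries, which allows a share of up to 0.723%, and 7, 5 and 25 in the older ones, 14.7% of 252. Both genes held this call in all 6 fits that leave out a library. Fam69b had 1, 0 and 0 intronic reads and then 12, 32 and 42, up to 70.0% at 6w, and Srpx had 0, 0, 20, 43, 32 and 43, up to 100% of 43 reads at 6w. The intronic pAs of these 2 genes also lie in, or within 1000 nt after, Gm20532 and Rpgr on the same strand.

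The ratio fell in fewer genes. Amn1 had 55, 55, 12, 12, 6 and 10 intronic reads, 21.8% at 1w and 0.589% at 6w, while its last-exon reads went from 197 to 1689. 6820408C15Rik had 78.3%, 48.6%, 7.20%, 2.13%, 2.90% and 1.92% intronic reads, and its last-exon reads went from 5 to 153. C87436 had 7, 6 and 4 intronic reads and then 0 of 2343, and Top3b, a topoisomerase, had 9, 5 and 2 and then 0 of 280, which allows up to 0.128% and 1.07%. Their log2 changes were -4.24 ± 1.07 for Amn1 (edgeR adjusted p = 0.0103) and -4.58 ± 1.14 for 6820408C15Rik (0.00954). Of the 6 fits that leave out a library, Amn1 kept its call in 4, 6820408C15Rik in 5, Top3b in 1 and C87436 in 6, and 1 of the 11 lower calls held in all.

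**Figure D4:**
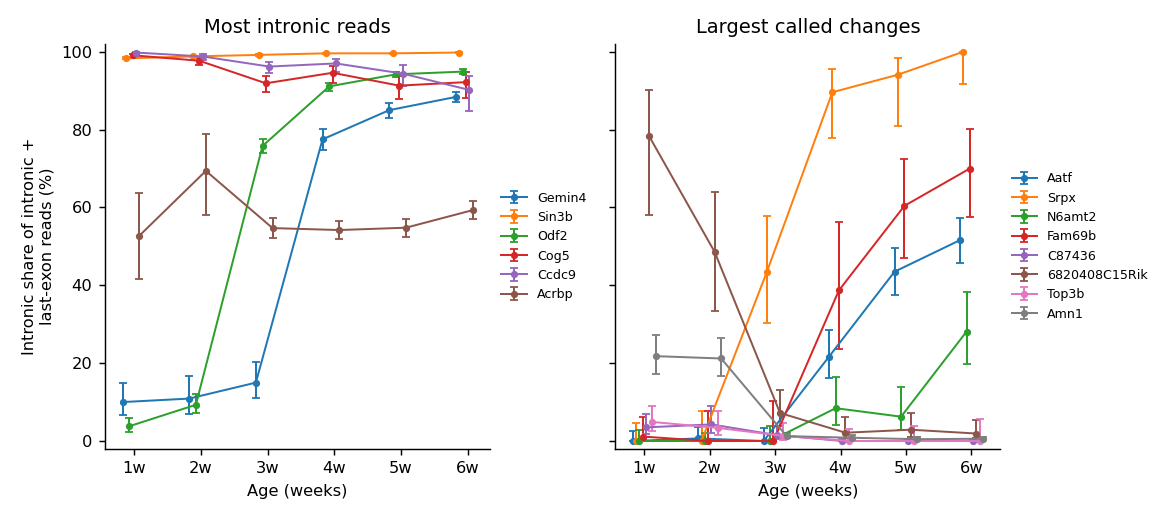
Intronic reads as percent of intronic and last-exon reads at each week, 1 library a week, with 95% Wilson intervals, for the single-pA genes with most intronic reads (left) and the largest called changes (right). Odf2 climbs from 3.79% to 94.9% over the weeks and Amn1 drops from 21.8% to 0.589%, while Sin3b stays at 98.3% or more.

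uaRNA pAs were listed for 1262 single-pA genes, 22.3%, against 33.3% of multi-pA genes. The 2062 sites lay a median of 962.5 nt upstream of the nearest annotated start site of the gene, with quartiles of 457.5 and 1926.5 nt over the 2044 that could be placed. They held 162213 reads, and Sco2 alone held 54.4% of them. The summed uaRNA level of single-pA genes was 947, 1208, 4940, 6877, 7678 and 6857 RPM from 1w to 6w, and without Sco2 896, 1144, 2382, 2947, 2822 and 3094 RPM. Of the sites 203, with 6.72% of reads, lay inside or within 1000 nt after another annotated gene of their strand. In 141 of 1123 genes with at least 20 reads of both kinds together the uaRNA had more reads than the last exon.

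Sco2, a copper chaperone of cytochrome c oxidase without introns, had uaRNA levels of 50.9, 64.2, 2558, 3930, 4856 and 3763 RPM against 6.09, 7.79, 11.3, 6.70, 7.16 and 6.86 RPM for its mRNA. The main uaRNA pA at chromosome 15, position 89205864, held 83706 reads and lies 2984 nt upstream of Sco2, antisense to Tymp (chr15:89203876-89207179) and 2607 nt past the end of Ncaph2 on the same strand. These reads may therefore not be uaRNA of Sco2, and whether they come from Ncaph2 or another transcript was not tested. Aldh1a2, an enzyme of retinoic acid synthesis, had 1.30, 9.44, 184, 275, 234 and 281 RPM of uaRNA. For Slc22a21, a carnitine transporter with 2 last-exon reads in all, it was 0.435, 0.708, 59.9, 70.6, 73.1 and 74.6 RPM. In Sco2, Aldh1a2 and Slc22a21 the 3w library lay nearer the older ones, and none of these 3 passed the test (edgeR adjusted p = 0.139, 0.148 and 0.182). Txndc2, a thioredoxin of the sperm tail, had 0.652, 0.236, 15.7, 123, 127 and 122 RPM of uaRNA and was higher (log2 change 5.51 ± 1.58, adjusted p = 0.031). Ibtk had 27.2, 58.1, 81.2, 62.2, 53.6 and 46.1 RPM, with no call.

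The uaRNA test covered 216 single-pA genes, of which 81 were higher in 4–6 week samples and 6 lower, or 37.5% and 2.78%. Over all 1063 uaRNAs tested 39.6% were higher and 2.16% lower, and the median log2 change was 2.47 for single-pA genes and 2.52 for all. Of the 81 genes with higher uaRNA 24 also had higher mRNA, 27 were not called, 6 had lower mRNA and 24 were not tested. Over all genes tested for expression 17.7% were higher and 22.5% lower, and the difference from these shares was not tested. The number higher was 46 without 6w and 208 without 3w, and the number lower 0 without 5w (9 at an unadjusted p below 0.05), 1 without 6w, 3 without 2w and 25 without 3w.

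Gm9047, Tmprss13, 4932412H11Rik and Adc had the largest rises in uaRNA, and none of them had a uaRNA read at 1w, 2w or 3w. Gm9047 had 24, 57 and 84 in the older libraries, at least 40.5-fold higher in RPM against the limit of 3 reads over the younger set, and its mRNA rose as well, from 0, 0 and 3 to 90, 116 and 140 reads. Adc, an antizyme inhibitor, had 23, 32 and 66 uaRNA reads, at least 29.7-fold higher, and its mRNA rose from 5, 12 and 6 to 133, 392 and 381 reads. 4932412H11Rik had 32, 34 and 80 uaRNA reads, at least 35.8-fold higher, and 26, 20 and 26 mRNA reads after 0 in the younger libraries. Tmprss13, a membrane serine protease, went apart, with 27, 46 and 80 uaRNA reads, at least 37.6-fold higher, and 6, 2, 0, 0, 0 and 0 mRNA reads from 1w to 6w. The uaRNA pA of Tmprss13 also lies in or within 1000 nt after 1700003G13Rik.

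Lamb2, Sox4, Hdac8 and Fam60a had lower uaRNA. Lamb2, a laminin chain of basement membranes, had 24, 28 and 10 uaRNA reads and then 1, 1 and 3, and its mRNA fell with it, from 3423, 5250 and 1246 RPM to 330, 166 and 83.4 RPM (edgeR log2 change -2.80 ± 0.661, adjusted p = 0.0228). The uaRNA of Hdac8, a histone deacetylase gene on the X chromosome, had 78, 122, 41, 16, 7 and 4 reads, a log2 change of -2.37 ± 0.583 (adjusted p = 0.0187). Sox4 had 54, 25, 19, 4, 1 and 5 uaRNA reads and Fam60a, of the Sin3 complex, 26, 36, 21, 5, 1 and 7, with adjusted p of 0.0219 and 0.0457. Hdac8, Sox4 and Fam60a had 5, 8 and 4 last-exon reads over all 6 libraries, so their mRNAs could not be followed. The calls of Lamb2, Sox4, Hdac8 and Fam60a were kept in 4, 3, 3 and 1 of the 6 fits that leave out a library, and 0 of the 6 lower uaRNA calls held in all.

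**Figure D5:**
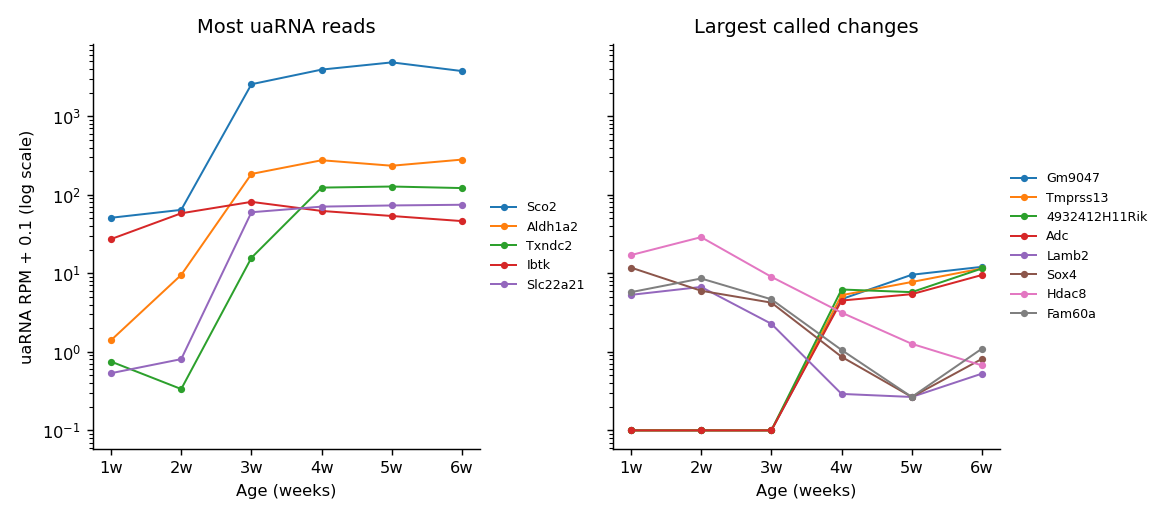
uaRNA RPM plus 0.1 (log axis) at each week, 1 library a week, for 5 of the 6 single-pA genes with most uaRNA reads (left) and the largest called changes (right). Sco2 climbs from 50.9 to 3763 RPM over the weeks, and the 4 genes with the largest rises have 0 uaRNA reads up to 3w.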

How the data were processed

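Whole mouse testis poly(A)+ RNA had been sequenced by 3'READS at 6 ages, 1 library each. The authors aligned reads to mm9 with Bowtie2 (submitters' processing notes), kept PASS reads with at least 2 unaligned Ts, clustered pAs within 24 nt and deposited raw counts of PASS reads per pA. All 6 count columns were mapped to samples and 0 were left unmapped. Single-gene pAs held 3497870 to 5427850 reads a library.

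Last-exon, intronic and uaRNA reads were summed per gene. Tests used edgeR 4.0.16 in R 4.3.3 (quasi-likelihood, TMM, filterByExpr, Benjamini-Hochberg over all genes or uaRNAs tested), 1–3 week against 4–6 week libraries. The intronic test compared the ratio to last-exon reads within libraries and needed 20 reads in every library. RPM used the study's PASS totals. DESeq2 1.42.0 was an alternative, with other scalings, filters and each library left out. Tables used Python 3.11.15, pandas 2.3.3, scipy 1.17.1 and pysam 0.24.0. Gene structures came from an annotation of the same build, matching 5630 genes by symbol and 15 by another name. On simulated data the expression test recovered 23.7% of genes changed by 2 on the log2 scale and 95.9% of those changed by 4 (11015 genes). Intervals and limits from 0 counts (3 counts) cover counting error only.

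Named genes were the 8 highest by mean RPM, the 8 largest called changes each way with at least 100 reads and no overlap, the 3 with the largest share in each week (at least 200 reads), the 5 steadiest (at least 500 reads), the 6 with most intronic or uaRNA reads and the 4 largest called changes each way, and up to 4 of each list. Members and lists were chosen with earlier results of these data known. Genes without an NM transcript were not used here. The results of 1 gene that the rule named are not reported here.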

Additional observations from a re-analysis of the deposited data

Results flagged for a closer look

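Single-pA genes also had pAs in exons upstream of the last, which no comparison above used. These 236 sites in 205 genes held 17126 reads over the 6 libraries. Pofut2, a protein fucosyltransferase gene, held 8224 of them, with 1140, 1215, 1247, 1274, 1500 and 1848 reads from 1w to 6w. Atp5k, a subunit of ATP synthase, had 0, 10, 583, 25, 25 and 0 reads at such sites, most of them at 3w.

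The 81 genes left out because their only last-exon pA was listed for a second gene as well had 47 distinct sites with 17010 reads, each site counted once.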

How the results depend on the processing

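The cause of the changes given here was not tested. For expression, 494 single-pA genes higher and 649 lower became 324 and 1544 with the study's totals, 153 and 252 with at least 20 reads in every library, and 884 and 1406 when pAs under 5% of a gene's last-exon reads were not counted. With at least 1000 reads in all, an alternative chosen after seeing the data, they were 186 and 185. By DESeq2 864 were higher, and with age as a linear term 894. Leaving out each library gave 92 to 1232 higher and 0 to 1066 lower genes, and 91 higher and 0 lower calls held with every library left out in turn. The intronic ratio gave 33 to 94 higher (61 with all libraries) and 1 to 57 lower (11), and 22 lower with at least 10 reads in every library. uaRNA gave 46 to 208 higher (81) and 0 to 25 lower (6), with 140 higher without a filter and 18 lower with the study's totals. Between 4w and 2w, 1258 genes were up and 1215 down with TMM, and 1479 and 3221 with at least 1 read. AATAAA was found in 73% of pAs with at least 20 reads. On TMM-scaled reads the genes peaking in the weeks 2w, 3w, 5w and 6w numbered 655, 439, 422 and 1013, and the share of last-exon reads turned to -2.54 percentage points without the 10 genes with most reads, both chosen after seeing the data. Ppia turned from a log2 change of 1.17 to -0.14 with the study's totals (edgeR adjusted p = 0.739). No paired analysis was possible because each week holds 1 library.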
